A study of Homo sapiens with 4 samples.

Results

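Metallothioneins are small cysteine-rich proteins that bind zinc and copper, and also toxic metals such as cadmium. When free zinc in the cell rises, the zinc finger factor MTF1 moves to metal response elements in the promoters of its target genes, which include the metallothioneins and the zinc exporter gene SLC30A1. Glucocorticoids, oxidants and cytokines can also induce metallothioneins, and monocytes and macrophages use them in the control of zinc. Here 10 genes were followed among the 25680 gene names in the deposited tables: 7 genes of the MT1 group (MT1A, MT1E, MT1F, MT1G, MT1H, MT1M and MT1X), MT2A, MTF1 and SLC30A1. They were chosen by name, with earlier results of these data known. Each had a row in all 4 libraries.

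RNA-seq was done in THP-1, an established human monocytic leukaemia line, grown in RPMI with fetal bovine serum. The shPIWIL4 group (n = 2 libraries) received a lentivirus with a short hairpin RNA against PIWIL4, a PIWI protein of the Argonaute family, and the Scrambled group (n = 2 libraries) received one with a scrambled hairpin. Cells of both groups were FACS sorted 48 hours after transduction. Groups follow the sample titles, since the treatment label of the shPIWIL4 libraries holds the word scrambled too. The labels name 1 hairpin vector against PIWIL4, no rescue, no batch and no culture of origin for the replicates. Effects of lower PIWIL4 and other effects of that hairpin therefore cannot be told apart, and p-values measure the spread between these libraries, which may be technical.

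Total counts were 50689304 and 53657246 in shPIWIL4 libraries 1 and 2, against 31458079 and 51655687 in Scrambled libraries 1 and 2. PIWIL4 had 17.8 and 17.4 CPM (counts scaled to a common library size by TMM) in shPIWIL4 libraries 1 and 2, against 38.5 and 37.2 CPM in Scrambled libraries 1 and 2. Of 11 monocytic marker genes, 10 had at least 1 TPM (the deposited transcript level, scaled for gene length and depth) in every library. The summed level of the 11 was 3390 to 3524 TPM in shPIWIL4 libraries and 1030 to 1081 TPM in Scrambled libraries. Sums of T cell, epithelial and fibroblast markers were at most 2.75 TPM in any library, and CD3E, CD2, KRT19, COL1A2 and COL3A1 were at 0 in all 4. The 4 B cell markers summed to 7.11 and 7.15 TPM in shPIWIL4 libraries and to 15.8 and 16.2 TPM in Scrambled libraries. The 4 hepatocyte markers, with TTR at 0, summed to 2.60 and 2.75 TPM in shPIWIL4 libraries and to 1.52 and 1.53 TPM in Scrambled libraries. The part of these marker levels in the results below was not tested.

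The sequences that MTF1 is known to read come first. RefSeq promoter windows on GRCh38.p14 were at hand for 5 of the 10 genes: MT2A, MT1X, MT1H, SLC30A1 and MTF1. There was none for MT1A, MT1E, MT1F, MT1G or MT1M. The 250 bases before the gene start were searched for the 7-letter core of the metal response element, TGCACNC or TGCGCNC, on both strands. The 4 windows that held a match are given below, to show how densely the metallothionein promoters at hand carry the core. They are printed 5′ to 3′ on the strand of the gene, with each match in capitals. They lie at chr16:56608334-56608583 (plus strand) for MT2A, chr16:56682220-56682469 (plus strand) for MT1X, chr16:56669564-56669813 (plus strand) for MT1H and chr1:211579162-211579411 (minus strand) for SLC30A1.
MT2A: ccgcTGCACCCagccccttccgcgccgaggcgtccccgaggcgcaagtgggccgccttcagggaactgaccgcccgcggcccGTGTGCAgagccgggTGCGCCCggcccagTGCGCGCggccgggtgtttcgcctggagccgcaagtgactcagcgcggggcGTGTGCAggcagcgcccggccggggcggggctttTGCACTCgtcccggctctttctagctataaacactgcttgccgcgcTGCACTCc
MT1X: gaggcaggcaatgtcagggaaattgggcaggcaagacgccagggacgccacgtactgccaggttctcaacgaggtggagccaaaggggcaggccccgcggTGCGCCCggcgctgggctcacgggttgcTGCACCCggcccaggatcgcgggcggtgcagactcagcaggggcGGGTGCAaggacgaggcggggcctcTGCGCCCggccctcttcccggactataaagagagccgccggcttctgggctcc
MT1H: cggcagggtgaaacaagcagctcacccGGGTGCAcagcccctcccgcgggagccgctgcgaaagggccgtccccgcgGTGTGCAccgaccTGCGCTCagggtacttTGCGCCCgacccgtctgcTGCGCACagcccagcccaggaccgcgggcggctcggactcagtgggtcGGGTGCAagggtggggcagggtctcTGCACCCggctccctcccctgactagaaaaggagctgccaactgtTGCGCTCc
SLC30A1: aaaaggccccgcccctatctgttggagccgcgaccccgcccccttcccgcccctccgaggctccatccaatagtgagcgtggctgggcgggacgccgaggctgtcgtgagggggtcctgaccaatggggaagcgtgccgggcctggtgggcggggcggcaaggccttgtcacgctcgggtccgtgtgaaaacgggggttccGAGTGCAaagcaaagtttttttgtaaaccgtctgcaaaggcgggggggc
MT2A held 7 matches, MT1X 4, MT1H 8, SLC30A1 1 and MTF1 0, and no 2 matches overlapped within a window. Of 35116 promoter windows of this length, 24.8% held at least 1 match, 0.370% at least 4, 0.0313% at least 7 and 0.0171% at least 8. MT2A and MT1H each had a match ending 2 bases before the start, and MT1X and MT1H each had one from 53 to 47 bases before it. A match is a run of letters and not a shown binding site.

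**Figure D1:**
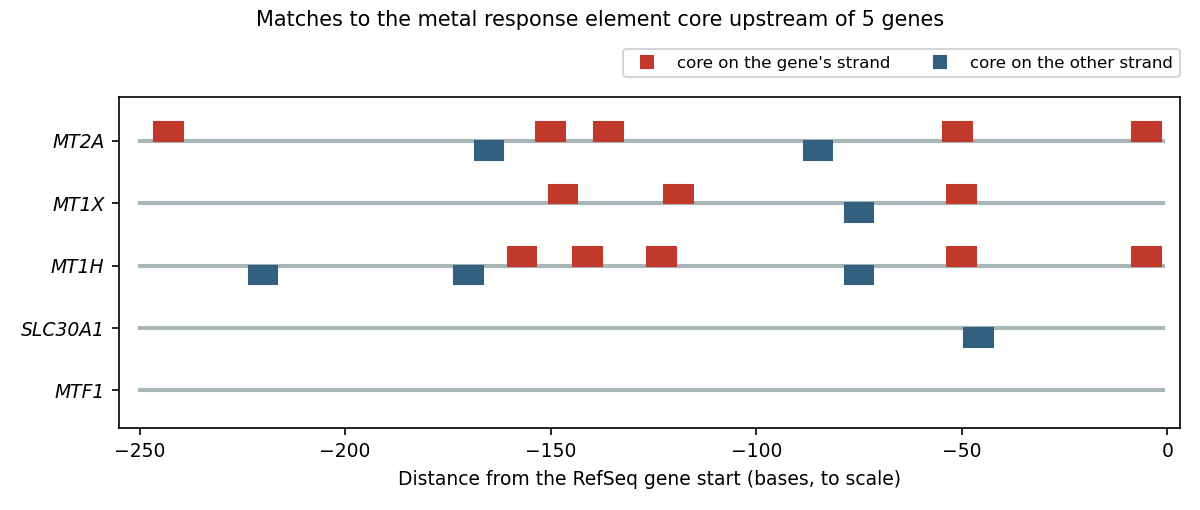
Positions of matches to the metal response element core in the 250 bases before the RefSeq gene start, for 5 genes (y axis) by distance from the start in bases (x axis). Blocks above a line are matches on the gene's strand and blocks below are on the other strand. MT2A, MT1X and MT1H hold 7, 4 and 8 matches, SLC30A1 holds 1 and MTF1 holds 0.

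The 5 metallothionein genes with enough reads to test were all higher in shPIWIL4 cells, by 3.60-fold to 6.92-fold. MT1E, MT1F, MT1G, MT1X and MT2A encode zinc-binding metallothioneins found in many tissues. MTF1, the zinc sensor, and SLC30A1, which exports zinc across the plasma membrane, were higher too, by 1.515-fold and 1.79-fold. So 7 of 7 tested genes rose and 0 fell, where 28.7% of the 16108 genes tested were called higher and 57.7% were called in either direction. These genes and the gene lists below were chosen with earlier results of these data known, so such counts only describe them. All 5 metallothioneins were called with at least a 2-fold rise, as were 4.79% of all genes tested. A call is an adjusted p under 0.05 from the edgeR quasi-likelihood fit, adjusted by the Benjamini-Hochberg method over every gene tested. All 7 stood above the filter level of 0.195 CPM in each of the 4 libraries, so none passed the filter through 1 group only. MT1A and MT1H were below it in all 4 libraries and MT1M in 3 of 4, and these genes were not tested.

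MT1E had the highest level of the family, with 132 and 104.5 TPM in shPIWIL4 libraries 1 and 2, against 22.4 and 22.7 TPM in Scrambled libraries 1 and 2. Its groups stood far apart, and the counts behind these levels were 1611 and 1356 in shPIWIL4 libraries, against 183 and 299 in Scrambled libraries. The log2 fold change (shPIWIL4 over Scrambled, here and below) was 2.34 (SE 0.13), with an edgeR adjusted p of 1.4e-06.

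MT1F had 82.8 and 75.2 TPM in shPIWIL4 libraries 1 and 2 and 13.0 and 13.4 TPM in Scrambled libraries 1 and 2. Both pairs of replicates were close, and the log2 fold change was 2.54 (SE 0.12, edgeR adjusted p 5.7e-07). MT1G had 45.2 and 33.6 TPM in shPIWIL4 libraries 1 and 2, against 5.36 and 5.61 TPM in Scrambled libraries 1 and 2. This gene was the lowest of the 5 in Scrambled cells and had the largest fold change of the 5, with a log2 value of 2.79 (SE 0.19, edgeR adjusted p 3.9e-06). Of all genes tested, 99.8% had a lower log2 fold change than MT1G. MT1E, MT1F and MT1G were called with at least a 4-fold rise, which was the case for 0.664% of all genes tested.

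MT1X had 52.2 and 39.1 TPM in shPIWIL4 libraries 1 and 2 and 11.8 and 12.5 TPM in Scrambled libraries 1 and 2, with a log2 fold change of 1.86 (SE 0.16, edgeR adjusted p 1.7e-05). MT2A, often the most abundant human metallothionein, had 51.6 and 31.6 TPM in shPIWIL4 libraries 1 and 2, against 9.48 and 12.5 TPM in Scrambled libraries 1 and 2. Its replicates differed most among the 5, by 1.58 times in CPM between the shPIWIL4 libraries, yet the groups did not overlap. The log2 fold change of MT2A was 1.85 (SE 0.23, edgeR adjusted p 1.3e-04). With 1 library left out, it ranged from 1.48 to 2.14 and stayed called, in fits where the lone library of a group is assumed to vary like those of the other group.

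**Figure D2:**
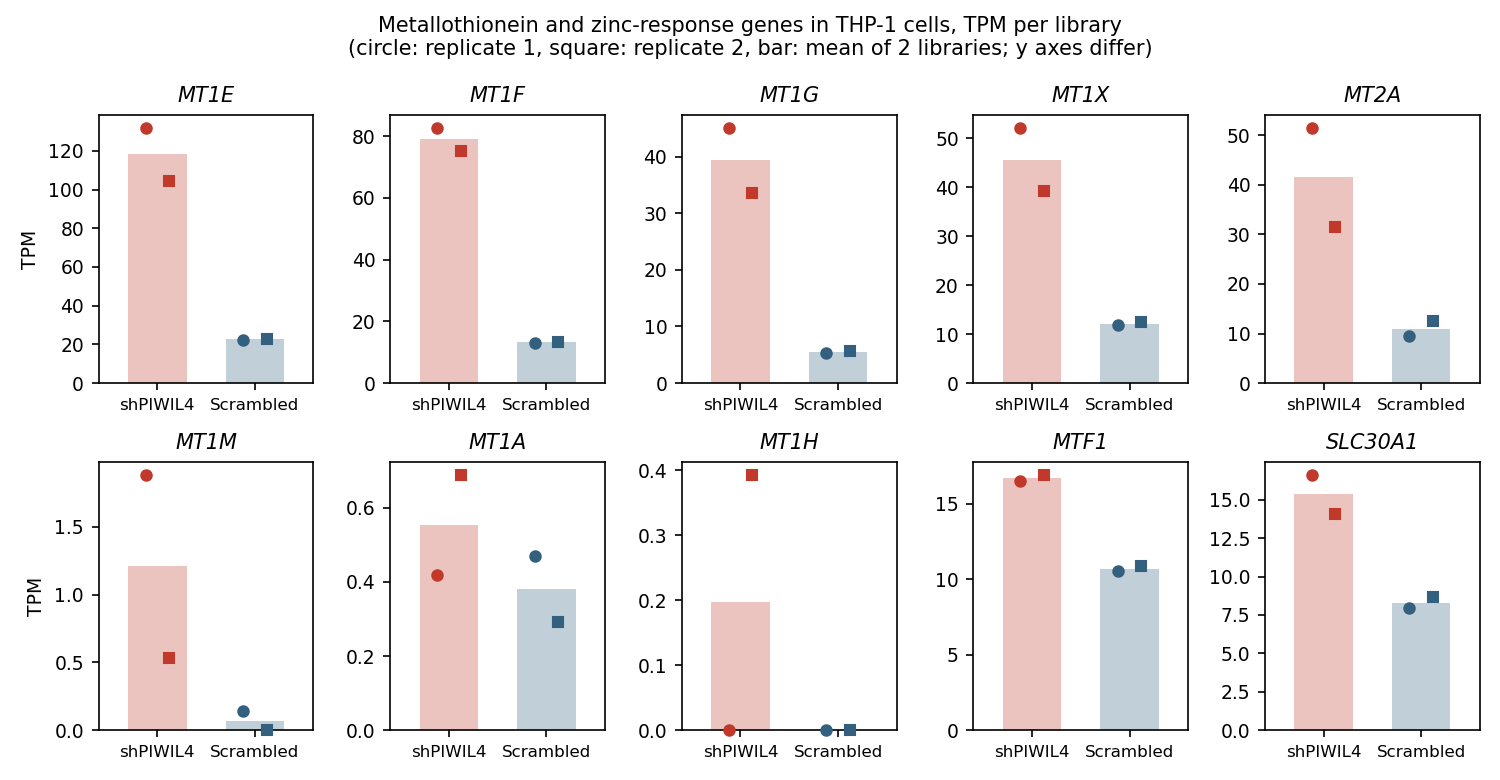
TPM (y axis, from 0, a separate scale for each gene) of the 10 genes in shPIWIL4 and Scrambled libraries. Circles are replicate 1, squares replicate 2 and bars the mean of 2 libraries. In MT1E, MT1F, MT1G, MT1X, MT2A, MTF1, SLC30A1 and MT1M, both shPIWIL4 libraries lie above both Scrambled libraries. MT1M had few counts and was not tested. MT1A and MT1H overlap between groups. In CPM the groups did not overlap, with shPIWIL4 higher, in 39.1% of all genes tested.

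The remaining metallothioneins of the list had few or no reads. MT1M had 20 and 6 counts in shPIWIL4 libraries 1 and 2, against 1 and 0 counts in Scrambled libraries 1 and 2. Summed over libraries and scaled, this is a ratio of 21.4 with an exact 95% interval of 3.52 to 878, which covers counting error only. Without the filter, MT1M was called higher by edgeR (adjusted p 0.013, where 24.0% of genes were) and by DESeq2 (adjusted p 0.032, where 25.0% were). MT1A had 4 and 7 counts in shPIWIL4 libraries and 3 and 3 counts in Scrambled libraries, a ratio of 1.51 with an exact 95% interval of 0.512 to 4.97, so a difference was not detectable at this depth. MT1H had 0 and 4 counts in shPIWIL4 libraries and 0 counts in both Scrambled libraries. Its promoter carried the most core matches of the 5 windows, while its transcript was the lowest of the 10 genes.

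Together the 8 metallothioneins reached 366 and 285.6 TPM in shPIWIL4 libraries 1 and 2, against 62.7 and 67.0 TPM in Scrambled libraries 1 and 2. In CPM the sum was 72.8 ± 10.6 in shPIWIL4 and 14.8 ± 0.333 in Scrambled (SD, n = 2 each), a ratio of 4.91, with no test on the sum. A sum of CPM does not change when reads are split between copies that are both in it. A sum of TPM can change, and reads given to copies outside the 8 genes or lost in counting would alter both sums. MT1E made up a similar share of summed TPM in both groups, 36.1% and 36.6% in shPIWIL4 libraries 1 and 2 and 35.8% and 33.9% in Scrambled libraries 1 and 2. MT1G made up 12.3% and 11.8% in shPIWIL4 libraries and 8.55% and 8.37% in Scrambled libraries. MT1X made up less in shPIWIL4 libraries, with 14.3% and 13.7% in shPIWIL4 libraries and 18.9% and 18.6% in Scrambled libraries.

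The order of mean levels was the same in both groups. By mean TPM in shPIWIL4 cells it ran MT1E (118), MT1F (79.0), MT1X (45.6), MT2A (41.6) and MT1G (39.4), and the last 3 overlapped between their libraries. In Scrambled cells it ran MT1E (22.6), MT1F (13.2), MT1X (12.2), MT2A (10.98) and MT1G (5.48), where MT1X and MT2A overlapped. All 5 had more in shPIWIL4 library 1 than in library 2, by up to 1.58 times in CPM, and SLC30A1 by 1.14 times. MTF1 did not share this, with a ratio of 0.941 between the same libraries.

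**Figure D3:**
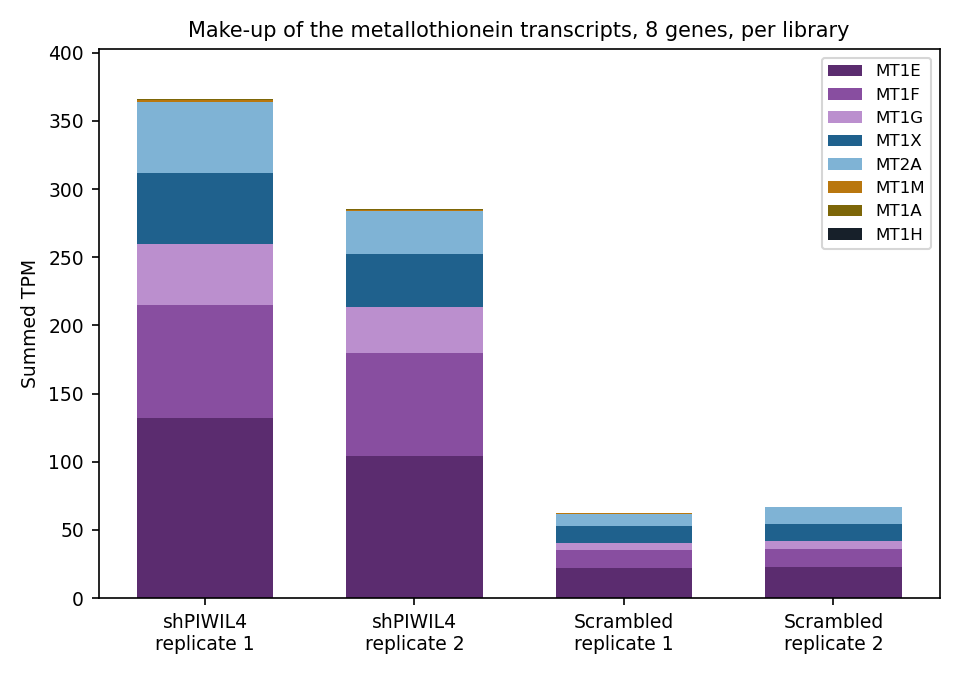
Summed TPM (y axis, from 0) of the 8 metallothionein genes in each library, with 1 colour per gene. The shPIWIL4 libraries reach 366 and 285.6 TPM and the Scrambled libraries 62.7 and 67.0 TPM, and MT1E is the largest block in each.

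MTF1 rose by a smaller amount than the metallothioneins. It had 16.5 and 16.9 TPM in shPIWIL4 libraries 1 and 2, against 10.5 and 10.8 TPM in Scrambled libraries 1 and 2, from 1353 to 3455 counts. The log2 fold change was 0.60 (SE 0.08) with an edgeR adjusted p of 2.6e-04. SLC30A1 had 16.6 and 14.1 TPM in shPIWIL4 libraries 1 and 2, against 7.96 and 8.64 TPM in Scrambled libraries 1 and 2. Its log2 fold change was 0.84 (SE 0.12, edgeR adjusted p 2.5e-04). The groups did not overlap for either gene. In CPM the groups did not overlap, with shPIWIL4 higher, in 39.1% of all genes tested, and 86.1% of tested genes had a lower log2 fold change than MTF1 and 92.6% a lower one than SLC30A1. In libraries of many sorted cells, a larger share of cells with a transcript and more of it per cell cannot be told apart.

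Other metallothionein rows did not all follow. Of 12 further names of genes and pseudogenes, 8 were in the tables, and 2 of these were tested. MT1L, a transcribed pseudogene in RefSeq next to MT2A, rose, with 12.1 and 9.89 TPM in shPIWIL4 libraries 1 and 2 and 4.08 and 4.70 TPM in Scrambled libraries 1 and 2 (log2 fold change 1.26, SE 0.20, edgeR adjusted p 4.9e-04). MT3, the metallothionein best known from neurons, fell, where 29.1% of all tested genes were called lower. It had 6 and 6 counts in shPIWIL4 libraries and 21 and 19 counts in Scrambled libraries (log2 fold change -2.01, SE 0.46, edgeR adjusted p 4.6e-03), and it passed the filter through the Scrambled libraries only. Groups that did not overlap in CPM, with shPIWIL4 lower, were found in 39.5% of all genes tested. MT1JP had 8 and 5 counts in shPIWIL4 libraries and 1 and 1 in Scrambled libraries, MT1IP had 1 and 1 in shPIWIL4 libraries and 2 and 0 in Scrambled libraries, and MT1DP had 1 in each library. MT1B, MT1HL1 and MT4 were at 0 in all 4 libraries.

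Metallothionein genes resemble each other, so their reads can be split or lost in counting. In GENCODE transcripts, the share of 50-base windows that also occurred in a transcript of another gene was 7.10% for MT1E, 1.22% for MT1F, 16.5% for MT1G, 18.3% for MT1X and 3.02% for MT2A. It was 5.76% for MT1A, 15.8% for MT1H, 9.87% for MT1M, 0.640% for MTF1 and 0 for SLC30A1. It was 4.42% for MT1L and 0 for MT3. These shares count windows found in any other gene, within the metallothionein family or outside it. Of the 341 shared windows of MT1X, most were shared only with genes whose names do not start with MT. What those genes are was not looked up. Among the 8 metallothioneins of the list, MT1F had the smallest share. The share depends on how many transcripts of a gene are pooled, with 24 of 1971 windows over 4 transcripts of MT1F and 20 of 347 over 1 transcript of MT1A. The part of shared reads in the changes was not tested. How shared reads were counted is not given in the sources used here, and values of single metallothioneins are uncertain to that degree.

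The MT1 and MT2A genes lie next to each other on chromosome 16, in the RefSeq order MT2A, MT1L, MT1E, MT1M, MT1JP, MT1A, MT1DP, MT1B, MT1F, MT1G, MT1H, MT1IP and MT1X among those in the tables. Rises were found at both ends of this order and in the middle, at MT2A, MT1L, MT1E, MT1F, MT1G and MT1X. The order runs from MT2A to MT1X only. MT3 and MT4 were placed neither in it nor among the neighbours below. MT3 fell (log2 fold change -2.01) but passed the filter through the Scrambled libraries only, and MT4 was at 0 in all 4 libraries. The 3 nearest protein-coding genes outside the metallothionein family on each side were taken as neighbours. Their number was set after their own values and those of the cluster had been seen, so they are given as values only. Of these 6 genes 5 were tested, 4 rose and 1 fell, with log2 fold changes from -0.40 to 0.98, where 28.7% of all tested genes rose and 29.1% fell. HERPUD1, an endoplasmic reticulum stress gene, was the highest at 0.98 (SE 0.09, edgeR adjusted p 2.7e-05). On the near side of MT2A, the ciliary gene BBS2 fell by 0.40 on the log2 scale (SE 0.10, edgeR adjusted p 9.5e-03), and beyond MT1X the nuclear pore gene NUP93 rose by 0.53 (SE 0.09, edgeR adjusted p 6.3e-04). BBS2 was no longer called without Scrambled replicate 1, which left 0 neighbours lower. OGFOD1 and NUDT21 rose by 0.74 and 0.40.

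**Figure D4:**
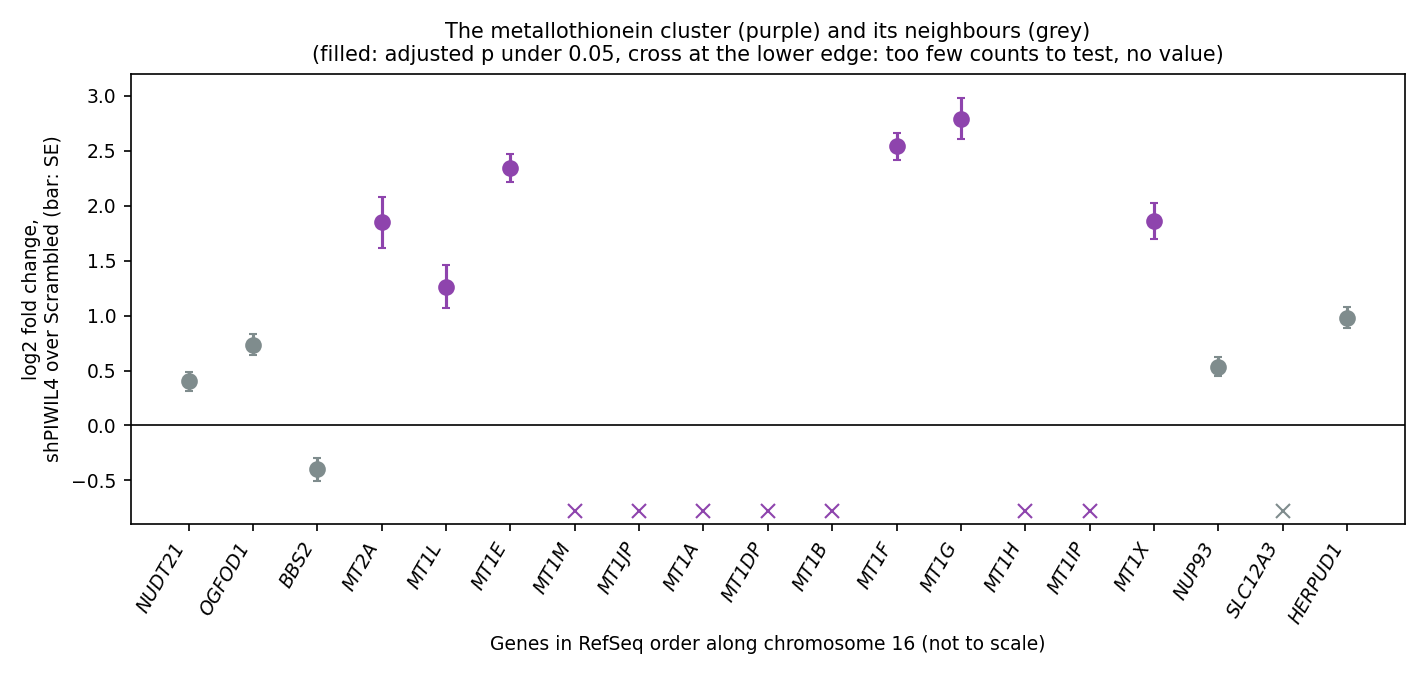
Log2 fold change, shPIWIL4 over Scrambled (y axis, with SE bars), of the MT1 and MT2A genes in purple and of 6 neighbours in grey, in RefSeq order along chromosome 16 (x axis, not to scale). Filled points were called, and crosses at the lower edge mark genes with too few counts to test. MT3 and MT4 are not shown. The 6 called genes of the cluster lie between 1.26 and 2.79 and the 5 tested neighbours between -0.40 and 0.98.

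The zinc transporters showed smaller shifts, mostly upward. ZnT proteins of the SLC30 family move zinc out of the cytosol. Of 10 SLC30 genes 6 were tested, 5 rose (SLC30A1 among them) and 0 fell, with a median log2 fold change of 0.66, where the median over all genes tested was -0.0034 and 28.7% of them rose. SLC30A3, a vesicle transporter known from neurons, had 2.77 and 2.39 TPM in shPIWIL4 libraries 1 and 2, against 1.13 and 0.974 TPM in Scrambled libraries 1 and 2 (log2 fold change 1.27, SE 0.19, edgeR adjusted p 3.6e-04). SLC30A5, which supplies zinc to the early secretory pathway, had 47.0 and 46.2 TPM in shPIWIL4 libraries and 25.3 and 26.5 TPM in Scrambled libraries (log2 fold change 0.80, SE 0.08, edgeR adjusted p 3.2e-05). It was the most abundant of the exporters that rose. SLC30A6 and SLC30A7 rose by 0.28 and 0.52, and SLC30A9 had a log2 fold change of -0.23 that was not called (edgeR adjusted p 0.060). Without Scrambled replicate 1, 3 SLC30 genes were called higher, and SLC30A6 (edgeR adjusted p 0.11) and SLC30A7 (0.060) were no longer called. SLC30A6 was also not called without Scrambled replicate 2 (edgeR adjusted p 0.18), without shPIWIL4 replicate 2 (0.053), with the replicate numbers as a block (0.12) or with upper-quartile factors (0.17). SLC30A9 was called lower without shPIWIL4 replicate 2 (edgeR adjusted p 0.012).

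ZIP proteins of the SLC39 family bring zinc into the cytosol, and several also carry iron or manganese. Of 14 SLC39 genes 11 were tested, 8 rose, 2 fell and 1 was not called, where 28.7% of all tested genes rose and 29.1% fell. The median log2 fold change was 0.58. SLC39A10 fell, with 24.6 and 23.0 TPM in shPIWIL4 libraries 1 and 2, against 52.3 and 59.3 TPM in Scrambled libraries 1 and 2. Its log2 fold change was -1.27 (SE 0.09), with an edgeR adjusted p of 4.0e-06, the smallest of the family. In mice this importer gene is known to be held down by MTF1. Whether MTF1 has a part in the fall here was not tested. SLC39A4, known from zinc uptake in the gut, fell too, with 4.15 and 2.73 TPM in shPIWIL4 libraries and 5.31 and 6.70 TPM in Scrambled libraries (log2 fold change -0.86, SE 0.19, edgeR adjusted p 3.2e-03).

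The importer genes that rose did so by 0.41 to 0.79 on the log2 scale. SLC39A14, which carries zinc, iron and manganese, had 35.4 and 36.0 TPM in shPIWIL4 libraries 1 and 2, against 19.5 and 20.6 TPM in Scrambled libraries 1 and 2 (log2 fold change 0.79, SE 0.08, edgeR adjusted p 4.3e-05). SLC39A8, its close relative, had a log2 fold change of 0.54 (SE 0.08, edgeR adjusted p 3.5e-04). SLC39A1, the most abundant importer here, had 118 and 115.7 TPM in shPIWIL4 libraries and 85.4 and 85.1 TPM in Scrambled libraries, a log2 fold change of 0.41 (SE 0.08, edgeR adjusted p 1.7e-03). SLC39A11, SLC39A6, SLC39A9, SLC39A3 and SLC39A13 had log2 fold changes of 0.66, 0.60, 0.59, 0.58 and 0.75. SLC39A13 was not called without the filter (edgeR adjusted p 0.056), and its log2 fold change was 0.44 without shPIWIL4 replicate 1 and 1.00 without shPIWIL4 replicate 2. SLC39A5 was not called, and SLC39A7 and SLC39A12 were listed at 0 in all 4 libraries. With the counting rules not given, a row at 0 does not show that the transcript was absent. The transporters other than SLC30A1, SLC30A3, SLC30A5, SLC39A10, SLC39A11 and SLC39A14 are named after their values were seen.

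**Figure D5:**
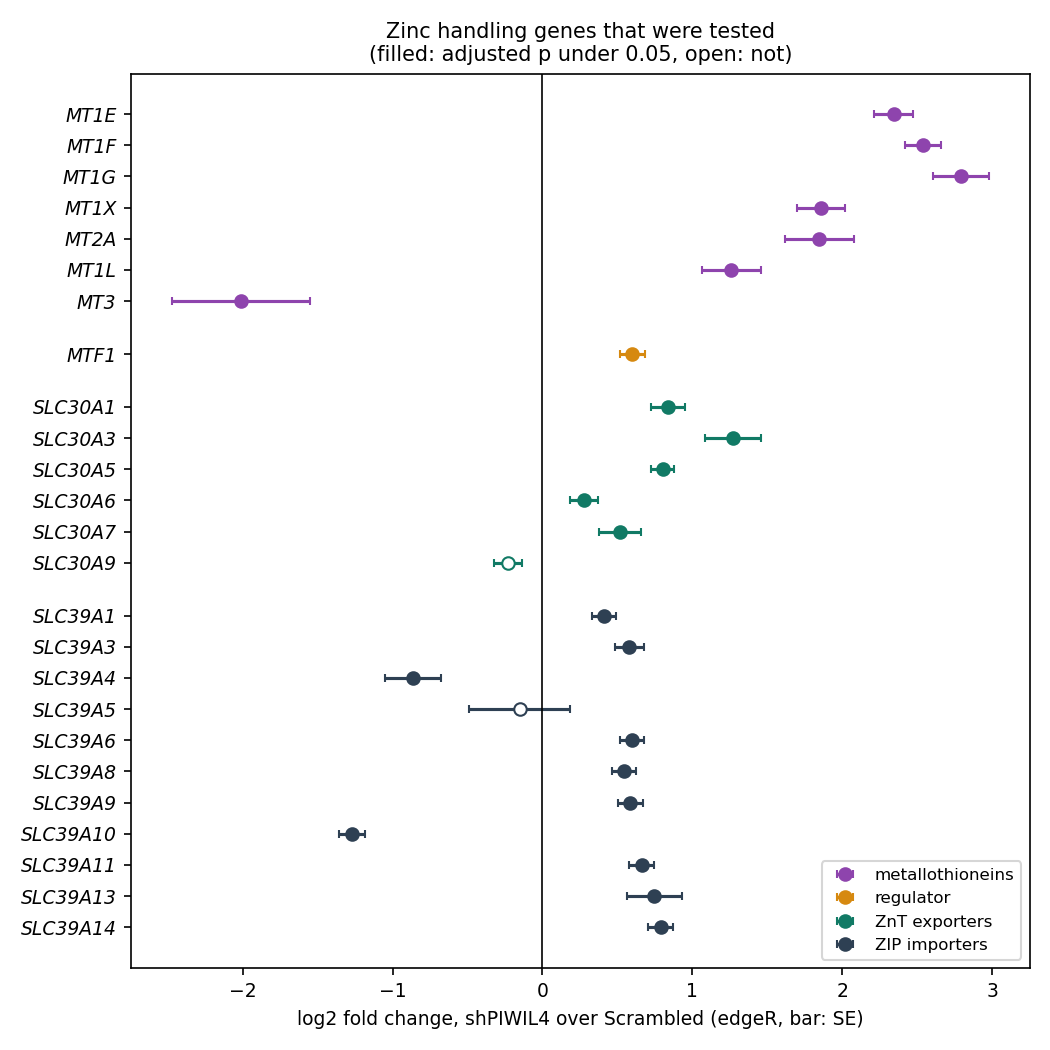
Log2 fold change, shPIWIL4 over Scrambled (x axis, with SE bars), of the tested metallothionein rows, MTF1 and the tested zinc transporters (y axis). Filled points were called and open points were not. MT1E, MT1F, MT1G, MT1X and MT2A lie between 1.85 and 2.79, and MT1L at 1.26. MT3 lies at -2.01 and passed the filter through the Scrambled libraries only. MTF1 lies at 0.60 and the transporters between -1.27 and 1.27.

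Genes of other routes that bear on metallothioneins were set beside them. Of 12 copper handling genes tested, 6 rose, 2 fell and 4 were not called, a share called near the 57.7% of all tested genes called in either direction. The median log2 fold change was 0.24. ATOX1, a copper chaperone, had 127 and 129 TPM in shPIWIL4 libraries and 72.1 and 63.9 TPM in Scrambled libraries (log2 fold change 0.87, SE 0.11, edgeR adjusted p 1.2e-04). The copper transporter SLC31A2 rose by 0.91 (SE 0.12, edgeR adjusted p 1.9e-04). ATP7A, which pumps copper out of the cell, fell by 0.83 on the log2 scale (SE 0.11, edgeR adjusted p 2.5e-04). The other fall in this list, CCS, the chaperone of copper for SOD1, was named after its value was seen (log2 fold change -0.34, edgeR adjusted p 0.039). Without shPIWIL4 replicate 2 or either Scrambled library, 1 gene of the list was called lower, and ATP7A stayed called.

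Heavy metals also induce genes of glutathione synthesis and heat shock. In that list 7 of 12 tested genes rose, 0 fell and 5 were not called, where 28.7% of all tested genes rose and 57.7% were called in either direction. The median log2 fold change was 0.37. SLC7A11, which imports cystine for glutathione, had 12.5 and 10.96 TPM in shPIWIL4 libraries 1 and 2, against 3.06 and 3.44 TPM in Scrambled libraries 1 and 2 (log2 fold change 1.80, SE 0.10, edgeR adjusted p 1.5e-06). The subunits of glutamate-cysteine ligase, GCLC and GCLM, rose by 1.25 (SE 0.10) and 0.92 (SE 0.09). The heat shock genes of the list were named after their values were seen. HSPH1 and DNAJB1 rose by 0.77 and 0.24. HSPA1B and BAG3 were not called (log2 fold change -0.22 and 0.0015, edgeR adjusted p 0.772 and 0.99), and HSPA1A had too few counts to test. HMOX1, heme oxygenase and a common marker of cadmium or heme stress, was named after its value was seen. It had 4.93 and 5.32 TPM in shPIWIL4 libraries and 4.02 and 4.65 TPM in Scrambled libraries, and was not called (log2 fold change 0.19, SE 0.15, edgeR adjusted p 0.28).

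Of 9 glucocorticoid-induced genes tested, 0 rose, 7 fell and 2 were not called, where 29.1% of all tested genes fell. The median log2 fold change was -0.85. TSC22D3, a glucocorticoid-induced leucine zipper gene, had 22.0 and 21.4 TPM in shPIWIL4 libraries 1 and 2, against 66.3 and 66.9 TPM in Scrambled libraries 1 and 2 (log2 fold change -1.66, SE 0.08, edgeR adjusted p 7.7e-07). ZFP36, which speeds mRNA decay, and NFKBIA, an inhibitor of NF-kB, fell by 1.03 and 1.18. The 2 genes not called, FKBP5 and ZBTB16, were named after their values were seen. Their log2 fold changes were -0.084 and -0.064 (edgeR adjusted p 0.485 and 0.677), and the groups overlapped in both.

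Finally, the tested genes whose values across the 4 libraries were closest to those of MT1E were sought, by the root mean square distance of log2 CPM centred on each gene's mean. Provisional names, such as those starting with LOC or LINC, and names with a hyphen or dot were left out of the search. Among the remaining genes outside the family, the closest were TBC1D2 (distance 0.0723), SPATA31E1 (0.0872), CRELD2 (0.0938) and CTSD (0.0964). CTSD, the lysosomal protease cathepsin D, had 908 and 639 TPM in shPIWIL4 libraries 1 and 2, against 142 and 165 TPM in Scrambled libraries 1 and 2, and CRELD2, an endoplasmic reticulum gene, had 199 and 160 TPM in shPIWIL4 libraries, against 29.3 and 33.2 TPM in Scrambled libraries. MT1F, MT1G, MT1X and MT2A lay at 0.121, 0.209, 0.249 and 0.311 from MT1E. The 4 points are 2 libraries of each group, so this likeness describes the group difference and little else.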

How the data were processed

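Total RNA of THP-1 cells was sequenced in 4 libraries, 2 per group, made with the Illumina TruSeq RNA kit per the labels' protocols. The submitters' processing notes name STAR, featureCounts, DESeq2 and the build hg19. Their versions, the annotation and any use of strand are not stated in what was used here. The authors deposited, for each library, a raw read count per gene and a TPM value derived from it. The 10 genes and all gene lists were chosen with earlier results of these data known.

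The whole table of 25680 rows entered the fit, in edgeR 4.0.16 (R 4.3.3). Genes were kept by filterByExpr (minimum count 10, minimum total 15), scaled by TMM and compared with the robust quasi-likelihood test, two-sided, with group as the only term. An SE is the log2 fold change divided by the square root of F. TPM entered no test. The rule for naming took the 10 genes, PIWIL4, every other metallothionein row, the 3 called genes of smallest p in each list and the 4 genes most like the most abundant metallothionein. Alternatives were other scalings, DESeq2 1.42.0, other filters, a replicate block and leaving out each library. Replicates differed by more than counting noise, with a chi-square per gene of 27.9 in shPIWIL4 and 7.89 in Scrambled. The fit was also run on counts simulated from its own model, which checks the code and not the calls. Genes beyond the third neighbour on each side of the cluster and one set of marker genes are not reported here; the number of neighbours was set after their values were seen. Promoters came from RefSeq on GRCh38.p14 and transcripts from GENCODE, also on GRCh38, and neither was placed on hg19.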

Additional observations from a re-analysis of the deposited data

How the results depend on the processing

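The 7 called genes of the 10 kept their call and direction under all 12 alternatives tried for each, the block and the left-out libraries included. In the 4 fits without a library, the lone library of a group is assumed to vary like those of the other group. The log2 fold change ranged from 2.20 to 2.48 for MT1E, 2.42 to 2.59 for MT1F, 2.60 to 2.97 for MT1G, 1.67 to 2.03 for MT1X, 1.48 to 2.14 for MT2A, 0.48 to 0.65 for MTF1 and 0.72 to 0.93 for SLC30A1. MT1M was an eighth call with DESeq2 and without a filter. It was above the filter level in 1 library only, shPIWIL4 library 1, which held 20 counts against 6 in shPIWIL4 library 2. The summed metallothionein ratio of 4.91 was 5.03 in TPM and 4.75 over all 14 MT1 and MT2A rows, and lay between 4.40 and 5.41 with 1 library left out. Upper-quartile factors brought the median over all tested genes to -0.12 on the log2 scale, with 3446 genes higher and 5717 lower, against 4618 and 4683.

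Some counts in the other lists moved. SLC30 genes called lower numbered 1 in place of 0 with upper-quartile factors, library totals, no filter, the stricter filter or the crossed replicate block, and 0 to 2 with 1 library left out, when those called higher numbered 3 to 5. Copper genes called lower numbered 1 in place of 2 with DESeq2, no filter and the replicate block, and 1 to 2 with 1 library left out. Heavy-metal genes called lower numbered 0 to 1 with 1 library left out. MT3 was removed by the stricter filter, which left 0 other metallothionein rows lower. SLC39A5, not called, had a log2 fold change of -0.75 to 0.28 with 1 library left out, the highest without shPIWIL4 replicate 1. The cause of these shifts was not tested.

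The replicate numbers are shared by the groups but no label says that they mark a day or culture. Same-numbered libraries deviated in opposite directions (correlation -0.31 across genes). With the replicate block 3921 genes were higher and 4197 lower, and with crossed numbers, added after the data were seen, 5728 and 5641. Depth limits MT1A, MT1H and MT1M.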
